A study of Mus musculus with 5 samples.

Results

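The Sox family was profiled in the cells of mouse synovial sarcoma (SyS). Its members here were *Sox1*, *Sox2*, *Sox3* and *Sox21* of subgroup SoxB, *Sox4* and *Sox11* of SoxC, *Sox5* and *Sox6* of SoxD, and *Sox8* and *Sox9* of SoxE. They were chosen by gene symbol and make up 10 of the 32286 features in the expression matrices. Another 10 Sox genes, from *Sox7* to *Sry*, served for comparison.

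The data were droplet-based single cell RNA-seq profiles of 5 tumors from hSS2 mice, which carry the human SS18::SSX2 fusion at *Rosa26* and switch it on where Cre protein reaches the cell. All 5 tumors share this genotype and were initiated by TATCre protein injected into the limb in the second week of life, so no tumor without the fusion was available as a control, and any limb cell that took up the protein could have been the cell of origin. Mice over the whole study were 2 to 6 months old and of a mixed CB57Bl/6-svJ strain. Tumors were harvested at morbidity, and the age of the animal behind each tumor is not given in the sources used here. By histology the labels name biphasic (BP, 2 tumors), monophasic (MP, 1), monophasic and biphasic (MP+BP, 1) and poorly differentiated and monophasic (PD+MP, 1) tumors. A biphasic synovial sarcoma holds gland-like epithelium beside spindle cells, a monophasic one spindle cells alone. Both BP labels share a leading number whose meaning is not stated, so whether they come from the same animal is unknown, and 3 of the 4 labels rest on 1 tumor.

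Sox proteins are transcription factors that bind and bend DNA through an HMG box, the domain first described in *Sry*. SoxB1 proteins (*Sox1*, *Sox2*, *Sox3*) keep embryonic and neural cells in a progenitor state, and *Sox21*, a SoxB2 protein, represses many of the genes they activate. SoxC proteins act in embryonic progenitors of many tissues and in young neurons. SoxD proteins have no activation domain of their own and work with *Sox9* in cartilage, where *Sox9* drives the collagen gene *Col2a1*. SoxE proteins also act in neural crest, glia and testis. In human synovial sarcoma *SOX2* is known as a gene that the fusion switches on.

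The members differ in gene structure, which sets what a read can stand for. *Sox1*, *Sox2*, *Sox3*, *Sox4*, *Sox11* and *Sox21* consist of 1 exon in the GENCODE vM21 annotation of GRCm38. *Sox5* spans 953553 bases of chromosome 6 (143828425 to 144781977, minus strand) with 45 distinct exons, and *Sox6* spans 567925 bases of chromosome 7 (115470872 to 116038796, minus strand) with 42. *Sox2* (chromosome 3, 34650405 to 34652461, plus strand) lies inside *Sox2ot* and *Sox1* (chromosome 8, 12395295 to 12400126, plus strand) inside *Sox1ot*, both on the same strand, and *Sox1* also shares an exon with *Gm25239*, so reads of these pairs may not be split cleanly. *Sox3* lies on chromosome X (60891366 to 60893430, minus strand), *Sox4* on chromosome 13 (28948919 to 28953713, minus strand), *Sox9* on chromosome 11 (112782224 to 112787760, plus strand) and *Sox11* on chromosome 12 (27334264 to 27342574, minus strand). *Sox8* lies on chromosome 17 (25565892 to 25570686, minus strand) and *Sox21* on chromosome 14 (118233232 to 118237030, minus strand).

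The 250 bases before the RefSeq transcription start are shown for 3 members whose levels differed in kind between cell classes, namely *Sox2*, which was high in the SyS-like tumor cells, *Sox11*, which was shared with endothelial cells, and *Sox5*, which was shared with pericytes. CG dinucleotides, which read the same on both strands, are in capitals.
*Sox2*, chr3:34649745-34649994, plus strand, GRCm38.p6: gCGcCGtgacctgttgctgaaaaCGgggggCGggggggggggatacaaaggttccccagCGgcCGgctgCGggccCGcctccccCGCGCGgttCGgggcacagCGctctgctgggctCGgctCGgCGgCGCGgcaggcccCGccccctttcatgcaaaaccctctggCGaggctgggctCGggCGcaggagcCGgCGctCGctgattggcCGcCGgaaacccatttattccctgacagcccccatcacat
*Sox11*, chr12:27342719-27342968, minus strand, GRCm38.p6: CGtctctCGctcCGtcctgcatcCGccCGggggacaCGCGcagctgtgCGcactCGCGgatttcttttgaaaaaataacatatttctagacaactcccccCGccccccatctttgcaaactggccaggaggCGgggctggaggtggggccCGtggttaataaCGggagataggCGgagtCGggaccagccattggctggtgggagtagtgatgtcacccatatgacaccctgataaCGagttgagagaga
*Sox5*, chr6:143947107-143947356, minus strand, GRCm38.p6: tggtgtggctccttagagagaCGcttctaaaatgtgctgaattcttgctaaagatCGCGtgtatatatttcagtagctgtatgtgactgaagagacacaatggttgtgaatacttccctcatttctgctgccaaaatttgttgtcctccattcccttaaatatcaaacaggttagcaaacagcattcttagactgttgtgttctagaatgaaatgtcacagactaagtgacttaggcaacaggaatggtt
None of these windows overlapped an annotated exon. The *Sox2* window held 27 CG dinucleotides, as many as or more than which were found in 8.56% of 32851 promoter windows of the same length. The *Sox11* window held 17 (23.5% of windows held as many) and the *Sox5* window 3 (71.0%), against a median of 6 and quartiles of 2 and 16 over all windows. The *Sox5* start used by RefSeq falls inside the longer GENCODE gene, so other starts of *Sox5* exist. Of the 10 members, 8 had a promoter entry in the table used. These counts describe the sequence and not what binds there.

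The 5 matrices held 51670 called cells, of which 39559 were kept after filters on detected genes, mitochondrial share and doublets. They formed 32 clusters, and 16 of these, with 23637 cells, were called SyS-like from 10 marker genes, among them *Tle1*, *Epcam* and *Zic1*. No Sox gene was a clustering feature or a naming marker. SyS-like cells made up 46.6% to 68.7% of the kept cells of a tumor (2949 to 5925 cells) and gave 57831902 to 75961672 unique molecular identifiers (UMIs, 1 per captured RNA molecule) per tumor. Their 10 markers summed to 3095 to 4360 CPM (UMIs of a gene scaled to a library of 1e6 UMIs) with none at 0, against 24.2 to 41.6 CPM for 10 macrophage, 64.1 to 212 CPM for 10 endothelial, 39.8 to 163 CPM for 10 pericyte and 86.6 (PD+MP) to 389 CPM (MP+BP) for 8 fibroblast markers. No marker of these lists was at 0 in SyS-like cells, and the part of fibroblast RNA in the comparisons with stromal cells was not tested. EGFP, which the hSS2 allele carries behind the fusion, had a UMI in 32.1% of SyS-like cells (95% exact interval 31.5% to 32.7%, median 10176 UMIs per cell), 0.903% of macrophage-like cells (median 5325 UMIs) and 0.62% of endothelial-like cells. Of the stromal classes, pericyte-like cells had one in 0.715% of cells. Fibroblast-like cells had one in 5.8% (8 of 138 cells, exact interval 2.54% to 11.1%, median 8718.5 UMIs). A further 11.7% to 26.4% of the kept cells of each tumor stayed unnamed in 4 clusters, whose leading genes included the smooth muscle actin gene *Acta2*, mitochondrial genes, *Gap43* or the globin gene *Hbb-bs*. In all 4 the SyS list had the most markers (2 to 8), and 5.15% to 26.8% of the cells had an EGFP UMI. The naming rules kept them out of the SyS-like class. Of 51437 distinct cell barcodes 231 occurred in more than 1 tumor. PD+MP stood apart in sex-linked RNA, with *Xist* at 0.371 CPM and *Uty* at 149 CPM in its SyS-like cells, where the other tumors held *Xist* at 1490 to 3881 CPM and *Uty* at no more than 0.0407 CPM, so for PD+MP label and sex cannot be told apart.

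The first question was which Sox genes set SyS-like cells apart from the other cells of the same tumors. Counts were summed per tumor and class, which gives 5 pairs per comparison, and a change is called at a Benjamini-Hochberg adjusted p under 0.05. Against stromal cells (pericyte-like plus fibroblast-like), 7 members were higher in SyS-like cells and 0 were lower by the edgeR quasi-likelihood test, where 16% of the 15562 genes that were no clustering feature were higher and 9.14% lower. Against endothelial-like cells 8 members were higher and 1 was lower (31.1% and 18.7% of 15580 genes), and against macrophage-like cells all 10 were higher (37.5%, with 22.9% lower, of 15295 genes). Since classes were built from RNA of these same cells, only without the Sox genes, the contrasts describe the classes. A difference within these pairs is a share of each class's RNA, and fewer expressing cells and less RNA per cell cannot be told apart from it.

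**Figure D1:**
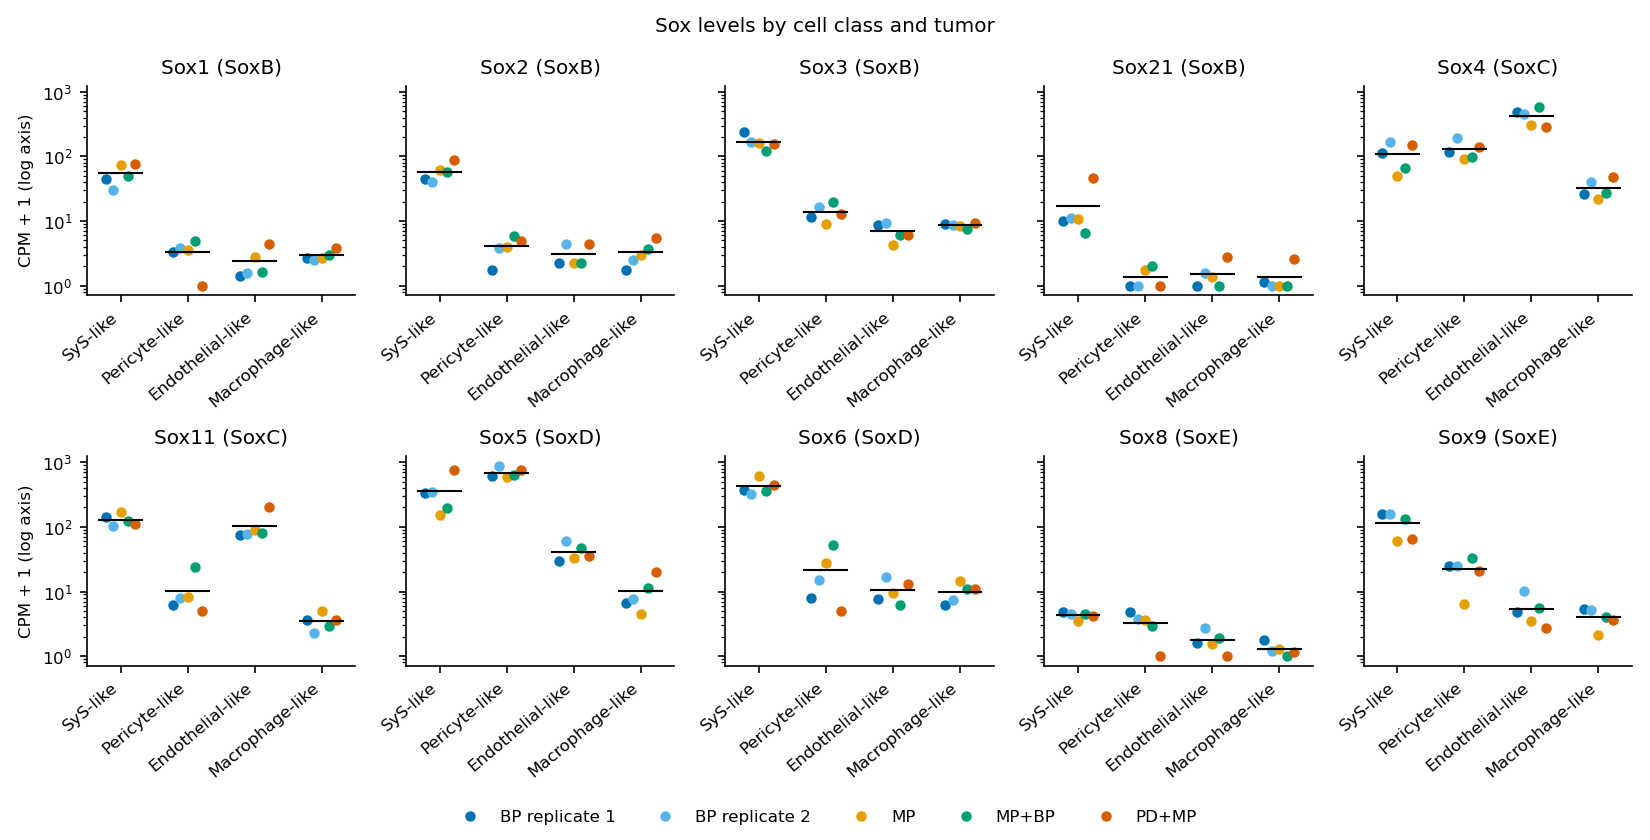
Level of each Sox member (CPM + 1, log axis) in SyS-like, pericyte-like, endothelial-like and macrophage-like cells, with 1 point per tumor and a bar at the mean of 5 tumors. All 4 SoxB genes, *Sox6* and *Sox9* stand highest in SyS-like cells of every tumor, whereas *Sox4* is highest in endothelial-like cells in all tumors and *Sox5* in pericyte-like cells in 4 of 5.

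SoxB genes were higher in SyS-like cells than in stromal, endothelial-like and macrophage-like cells. *Sox2* measured 44.3 CPM in SyS-like cells of BP replicate 1, 38.9 CPM in BP replicate 2, 59.6 CPM in MP, 56.3 CPM in MP+BP and 86.3 CPM in PD+MP, whereas the stromal cells of the same tumors held 0.695 to 5.50 CPM. The groups did not overlap, and the lowest SyS-like value was several times the highest stromal one. *Sox2* was higher by 3.99 ± 0.31 (log2 fold change ± SE; edgeR adjusted p = 4.88e-05), and was higher than in endothelial-like cells by 4.598 and than in macrophage-like cells by 4.14.

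*Sox1*, the SoxB1 gene of the lens and ventral brain, measured 44.1 CPM in SyS-like cells of BP replicate 1, 28.9 CPM in BP replicate 2, 71.9 CPM in MP, 48.7 CPM in MP+BP and 74.4 CPM in PD+MP. Stromal values were 2.08 to 3.67 CPM and the change was 4.03 ± 0.25 (edgeR adjusted p = 1.79e-05). *Sox3* reached 237, 164, 163, 119 and 154 CPM in the same order of tumors against 8.05 to 17.4 CPM in stromal cells, a change of 3.38 ± 0.26 (edgeR adjusted p = 5.29e-05). All 3 SoxB1 genes were thus higher in 5 of 5 tumors against each of the comparators. *Sox21* was low, at 8.92 CPM in BP replicate 1, 10.1 CPM in BP replicate 2, 9.63 CPM in MP, 5.61 CPM in MP+BP and, far above these, 45.4 CPM in PD+MP. Stromal and endothelial-like cells gave 5 *Sox21* UMIs each over all tumors. Its change was 4.16 ± 0.53 against stromal (edgeR adjusted p = 6.67e-04) and 4.93 ± 0.45 against endothelial-like cells. Both rest on those few counts, and what set the width of the errors was not tested.

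SoxC genes were split between classes. *Sox4*, which is needed for heart outflow tract and B cell development, was at 112, 167, 49.5, 66.2 and 148 CPM in SyS-like cells of BP replicates 1 and 2, MP, MP+BP and PD+MP. Endothelial-like cells of the same tumors held 483, 456, 310, 584 and 283 CPM, so they were above SyS-like cells in 5 of 5 tumors. *Sox4* was the 1 member that was lower, by -2.30 ± 0.33 (edgeR adjusted p = 3.12e-04). Against stromal cells, at 90.3 to 190 CPM, its difference was -0.54 ± 0.20 and was not called (edgeR adjusted p = 0.0727). That outcome changed with the setting. *Sox4* was called lower without PD+MP (-0.66, edgeR adjusted p = 0.0173), whose stromal cells were mostly fibroblast-like (119 of 157). So it was by DESeq2 (-0.58, DESeq2 adjusted p = 0.0244), which called 17.6% of genes higher and 17% lower. The call was also made with SyS-like sums thinned to the comparator (-0.74, edgeR adjusted p = 0.0280). Against pericyte-like cells alone it was -0.56 (edgeR adjusted p = 0.0384). Macrophage-like cells held 20.9 to 46.7 CPM, and *Sox4* was higher in SyS-like cells by 1.10 ± 0.17.

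*Sox11* was at 139, 102, 172, 121 and 110 CPM in SyS-like cells, in the same order of tumors, and at 7.04 to 21.1 CPM in stromal cells (3.18 ± 0.29, edgeR adjusted p = 1.14e-04). Against macrophage-like cells it was higher by 5.09 ± 0.19. Endothelial-like cells held 73.4, 76.3, 87.7, 78.1 and 200.2 CPM, and the difference of 0.21 ± 0.22 was not called (edgeR adjusted p = 0.466). PD+MP, with 80 endothelial-like cells, set that outcome, since *Sox11* was above the endothelial value in each of the other 4 tumors and was higher by 0.47 without PD+MP (edgeR adjusted p = 0.0187).

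SoxD genes went separate ways. *Sox6* was at 378, 327, 612, 363 and 440 CPM in SyS-like cells and at 6.95, 14.1, 27.1, 50.4 and 14.9 CPM in stromal cells (4.18 ± 0.39, edgeR adjusted p = 1.34e-04), with endothelial-like and macrophage-like values of at most 15.5 CPM. *Sox5*, its closest relative in the family, was at 339, 349, 154, 193 and 754 CPM in SyS-like cells but at 594 to 877 CPM in pericyte-like cells, a mean of 695 ± 118 CPM (SD, n = 5). Over all stromal cells the difference of -1.20 ± 0.44 was not called (edgeR adjusted p = 0.0719). In 4 of 5 tumors the stromal value was the higher one. PD+MP was the exception, and without it *Sox5* was lower in SyS-like cells by -1.67 (edgeR adjusted p = 2.48e-04), and so it was with the pericyte-like sums as the comparator (-1.42, edgeR adjusted p = 0.00162). Endothelial-like cells held 28.8 to 59.4 CPM of *Sox5* and macrophage-like cells 3.43 to 19.0 CPM, which SyS-like cells exceeded by 2.66 ± 0.34 and 4.73 ± 0.26.

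Of the SoxE genes, *Sox9* was higher in SyS-like cells than in each comparator and *Sox8* was low throughout. *Sox9* measured 155 CPM in SyS-like cells of BP replicate 1, 158 CPM in BP replicate 2, 58.8 CPM in MP, 134 CPM in MP+BP and 63.7 CPM in PD+MP. Stromal cells held 50.02, 23.9, 5.49, 39.4 and 51.4 CPM, lower in 5 of 5 tumors, and the change was 1.64 ± 0.40 (edgeR adjusted p = 0.0155). The call for *Sox9* was lost without BP replicate 2 (1.43, edgeR adjusted p = 0.0601). Fibroblast-like cells of PD+MP held 58.8 CPM, near the SyS-like value of that tumor. *Sox8* had 2.48 to 3.73 CPM in the SyS-like class, on 183 to 264 UMIs per tumor, against 0.745 to 4.17 CPM in the stroma, on 1 to 7 UMIs, and a difference of 0.08 ± 0.42 (edgeR adjusted p = 0.984). It was nevertheless higher than in endothelial-like (1.72 ± 0.40) and macrophage-like cells (2.80 ± 0.51), where 15 and 8 UMIs were found in all.

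**Figure D2:**
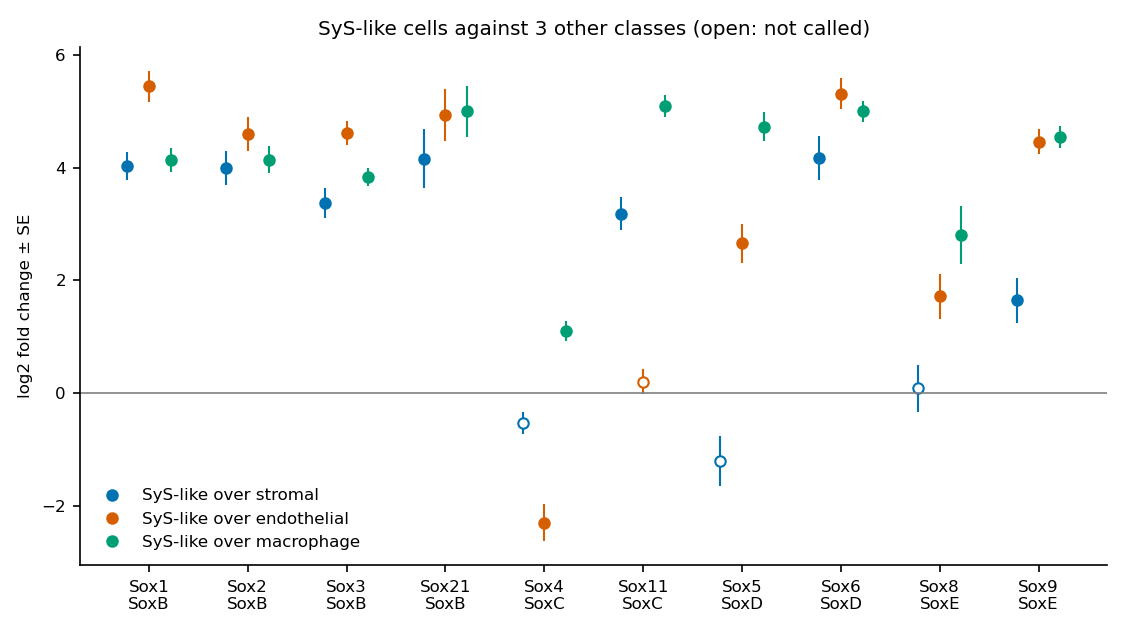
Log2 fold change of each Sox member in SyS-like cells over stromal, endothelial-like and macrophage-like cells of the same tumors (points, with bars of 1 standard error, 5 pairs each; open points did not pass the test). SoxB genes and *Sox6* lie above 3 in all comparisons, *Sox4* falls to -2.30 against endothelial-like cells and *Sox5* to -1.20, not called, against stromal cells.

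Smaller classes carried some Sox RNA too. Mast-like cells of MP and MP+BP, the tumors with enough of them, held *Sox5* at 228 to 266 CPM on 193 UMIs. They also held *Sox6* at 23.1 to 170 CPM on 81 UMIs and *Col2a1* at 46.3 to 119 CPM. None of 234 mast-like cells had an EGFP UMI (exact upper limit 1.56%, median 2477.5 UMIs per cell). In neutrophil-like cells of 3 tumors *Sox5* stood at 242 ± 207 CPM and *Sox6* at 335 ± 275 CPM (SD, n = 3), on 131 and 158 UMIs. SoxB genes were found there too, with *Sox3* at 47.4 to 93.6 CPM on 39 UMIs, *Sox1* at 14.97 to 76.6 CPM on 17 UMIs and *Sox2* at 3.16 to 42.5 CPM on 9 UMIs, and the *Sox1* value of MP was above the SyS-like one of that tumor. These cells had a median of 1878.5 UMIs and an EGFP UMI in 3.53% of cells, above the 0.903% of macrophage-like cells. The part of RNA from SyS-like cells in the mast-like and neutrophil-like values was not tested. T/NK-like and dendritic-like cells held no *Sox8* UMI, and a mean of at most 40.2 ± 29.0 CPM (SD, n = 5) of any member, with *Sox3* reaching 64.0 CPM in T/NK-like cells of 1 tumor.

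Among the other 10 Sox genes only *Sox14*, a SoxB2 gene like *Sox21*, was higher in SyS-like than in stromal cells (2.93 ± 0.33, edgeR adjusted p = 3.94e-04), at 10.98 ± 2.16 CPM (SD, n = 5). *Sox7* and *Sox18*, SoxF genes of vessels, were lower (2 of 8 tested). In endothelial-like cells the SoxF genes *Sox7*, *Sox17* and *Sox18* were at means of 387, 144 and 368 CPM against less than 1 CPM in SyS-like cells, which checks the endothelial class with genes that did not name it. *Sox12*, the third SoxC gene, was at 19.2 ± 6.44 CPM, and *Sox13*, the third SoxD gene, at 93.1 CPM in PD+MP and no more than 30.001 CPM elsewhere. *Sox10*, the third SoxE gene and a marker of glia and melanocytes, was at 0.936 ± 0.413 CPM, and *Sry* had no UMI. The overlapping transcripts *Sox2ot* and *Sox1ot* were at 97.9 ± 30.5 and 33.4 ± 5.79 CPM in SyS-like cells.

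Genes of the programs in which Sox proteins work were compared in the same pairs. Of all genes tested against stromal cells, clustering features included, 16.1% were higher and 13.5% lower. Of 11 neural progenitor genes 8 were higher and 1 was lower, with a median log2 fold change of 2.98 against 0.15 over all genes tested. Among them were the Notch target *Hes5* (4.31 ± 0.43) and *Pax6* (3.42 ± 0.36), which acts beside SoxB1 proteins in the embryonic eye and brain, while the intermediate filament gene *Nes* was lower (-1.43 ± 0.38). Of 8 neuronal genes 4 were higher and 1 was lower. In the cartilage matrix list 1 of 11 was higher, and this was *Col2a1*, with a SyS-like mean of 450 ± 135 CPM against a stromal mean of 48.0 ± 55.95 CPM (SD, n = 5), a change of 3.43 ± 0.37 (edgeR adjusted p = 3.11e-04). *Acan*, which *Sox5*, *Sox6* and *Sox9* switch on together in cartilage, was at 0.155 ± 0.107 CPM and too low to test. Of 9 epithelial genes 5 were higher, and of 12 mesenchymal genes 0 were higher and 7 lower, with 3.82 ± 0.36 for *Epcam*, also a naming marker, and -3.61 ± 0.27 for *Zeb2*. Cycling genes were higher in 7 of 12.

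The share of cells with a UMI shows how widely each member was spread. Each cell was thinned to 3000 UMIs, which left out 102 to 1130 SyS-like cells per tumor, most in PD+MP. The share in macrophage-like cells is given as a comparison, and the part of free RNA in it was not tested. *Sox6* was found in 56.1% ± 7.93 of SyS-like cells against 2.20% of macrophage-like cells (mean ± SD, n = 5 tumors), *Sox5* in 48.1% ± 18.6 against 1.99%, and *Sox3* in 33.1% ± 7.18 against 2.24%. *Sox11* was found in 26.1% ± 4.54 (0.622%), *Sox9* in 24.8% ± 9.67 (0.952%) and *Sox4* in 23.4% ± 9.85 (7.78%). *Sox2* and *Sox1* were found in 14.1% ± 4.54 (0.643%) and 12.7% ± 4.02 (0.602%), *Sox21* in 3.99% ± 4.204 (0.120%) and *Sox8* in 0.921% ± 0.133 (0.0760%). Every SyS-like share was above the macrophage-like one. Without thinning, at full depth, the shares were higher, for example 39.6% for *Sox2* and 80.5% for *Sox6*. The share thus depends on depth, and neither share counts the cells that expressed a gene. For *Sox4* in MP, 11.4% of SyS-like cells stood against 6.09% of macrophage-like cells. *Sox4* was found in 56.4% of thinned endothelial-like cells and *Sox5* in 64.5% of stromal cells.

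By subgroup, a SoxD gene was found in 64.4% to 87.3% of thinned SyS-like cells of a tumor, a SoxB1 gene in 41.5% to 54.5%, a SoxC gene in 34.2% to 48.3% and a SoxE gene in 13.3% to 34.3%. A cell held a mean of 2.00 (MP+BP) to 2.91 (PD+MP) members, and 2.03% to 10.8% of the cells held none. All 4 subgroups were found together in 2.24% to 6.71% of cells. The subgroups were thus found in overlapping sets of cells, and at this depth a missing UMI does not show that a gene was silent. For *Sox1* and *Sox2*, 487 cells held both against 412 if each were spread over cells of its tumor without regard to the other, a ratio of 1.18 (1.07 to 1.28 over tumors). For *Sox5* and *Sox6* the ratio was 1.09 (1.06 to 1.12) and for *Sox6* and *Sox9* 0.943 (0.900 to 1.00). Such ratios near 1 in sparse counts are given as a description.

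The next question was how the members varied with tumor and histology. In SyS-like cells the ratio of the highest to the lowest tumor was 8.10 for *Sox21*, 4.91 for *Sox5*, 3.38 for *Sox4*, 2.68 for *Sox9*, 2.57 for *Sox1*, 2.22 for *Sox2*, 1.99 for *Sox3*, 1.87 for *Sox6*, 1.69 for *Sox11* and 1.504 for *Sox8*. PD+MP held the highest *Sox1*, *Sox2*, *Sox5* and *Sox21*, MP the highest *Sox6* and *Sox11*, BP replicate 1 the highest *Sox3*, and BP replicate 2 the highest *Sox4* and *Sox9*. Counting error was small at this depth. Neighbors in the order of tumors had overlapping 95% Poisson intervals only for PD+MP and MP in *Sox1*, MP and MP+BP in *Sox2*, BP replicate 2 and MP in *Sox3*, both BP tumors in *Sox9*, the BP tumors and MP in *Sox21*, and all tumors in *Sox8*. The BP tumors, the only label with 2, differed less from each other in *Sox5* (344 ± 7.48 CPM, SD, n = 2) and *Sox9* (156 ± 1.98 CPM) than in *Sox4* (140 ± 38.8 CPM) and *Sox3* (201 ± 51.6 CPM). Since other labels hold 1 tumor each, label and tumor cannot be told apart for them.

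**Figure D3:**
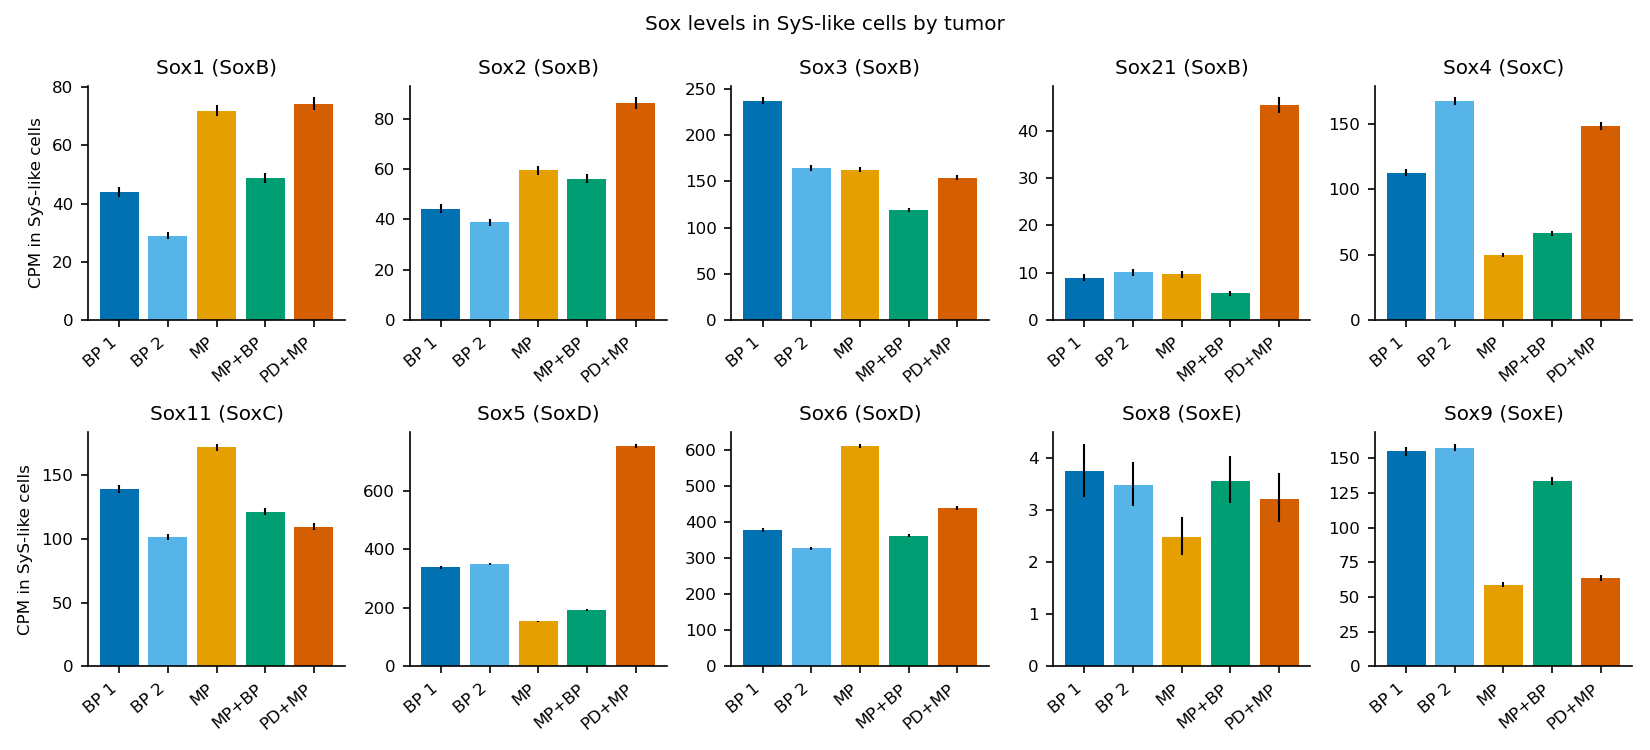
Level of each Sox member (CPM, linear axes from 0, 1 scale per gene) in SyS-like cells of the 5 tumors, with 95% Poisson intervals that cover counting error only. *Sox9* separates the 3 tumors with BP in the label (134 to 158 CPM) from MP and PD+MP (58.8 and 63.7 CPM), and *Sox21* and *Sox5* peak in PD+MP.

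To set tumors with an epithelial component against those without, SyS-like sums of the 3 tumors with BP in the label were compared with MP and PD+MP. *Sox9* was at 149 ± 13.2 CPM (SD, n = 3) with and 61.2 ± 3.42 CPM (SD, n = 2) without the biphasic label, a difference of 1.21 ± 0.20 on the log2 scale. It did not pass the test over 20693 genes (edgeR adjusted p = 0.429), nor did any other gene or member (0% called), with 1968 genes (9.51%) at an unadjusted p under 0.05. In simulated data this comparison recovered 1% of log2 changes of 1 and 58% of those of 2. A gene that was not called here is thus not shown to be equal between the sides. *Sox9* was past that unadjusted level with *Sox1*, *Sox2*, *Sox6* and *Sox21*, 5 of the 10 members. DESeq2 called 447 genes higher (2.29%) and 94 lower (0.483%) of 19479, and *Sox9* was the only member among them (1.22, DESeq2 adjusted p = 9.68e-05). Over all alternatives tried, the adjusted p of *Sox9* ran from 9.68e-05 to 0.999.

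*Sox1* went the other way, at 40.6 ± 10.3 CPM with and 73.1 ± 1.76 CPM without the label (-0.93 ± 0.24, edgeR adjusted p = 0.477), and so did *Sox2*, at 46.5 ± 8.88 and 72.9 ± 18.9 CPM (-0.73 ± 0.25), and *Sox6*, at 356 ± 26.3 and 526 ± 121 CPM (-0.64 ± 0.22). The tumors of the 2 sides did not overlap in *Sox1*, *Sox2*, *Sox6*, *Sox8* and *Sox9*, and in 26.3% of all genes tested. For *Sox21* the difference of -1.81 ± 0.65 came from PD+MP, since MP was within the range of the BP tumors. With MP left out the comparison sets 3 tumors against PD+MP alone, which also differs in sex, and the difference was -2.54 (edgeR adjusted p = 0.0447). The spread there comes from the 3 tumors only, the lone sample is assumed to vary like them, and this p does not test the label. *Sox3*, *Sox4*, *Sox5* and *Sox11* overlapped between the sides. None of the neural progenitor, neuronal, epithelial, mesenchymal, cartilage or cycling lists held a called gene, with list medians of 1.13 for epithelial and -1.09 for cycling genes against -0.03 over all genes.

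Inside the tumors the members differed in how evenly SyS-like clusters shared them. Levels were taken in 29 sums of at least 100 cells, each 1 cluster in 1 tumor. The range over the clusters of a tumor had a median over tumors of 3.63 on the log2 scale for *Sox3* and 2.93 for *Sox21*, between 1.503 and 1.696 for *Sox8*, *Sox1*, *Sox5*, *Sox11* and *Sox9*, 1.26 for *Sox2*, 1.19 for *Sox6* and 0.94 for *Sox4*. *Sox3*, the member found most often among SoxB genes, had the widest range by this median. The lowest cluster of a tumor held 6 (PD+MP) to 101 UMIs of *Sox3* (BP replicate 1). It held only 2 to 5 UMIs of *Sox21* and 0 to 66 of *Sox8*, so these 2 ranges rest on counts near the floor. *Sox4* had the narrowest by the median but not in every tumor, since it ranged over 2.42 in BP replicate 1 and 2.55 in PD+MP, where *Sox6* ranged over 0.894 and 1.14. Clusters were built from other genes of the same cells, so these ranges are a description.

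In clusters 2, 23 and 24 low *Sox3* went with high *Sox9*. In cluster 2, whose leading genes include *Bdnf*, *Npnt* and *Col1a1*, *Sox3* was at 44.5 CPM in BP replicate 1, 16.5 CPM in BP replicate 2, 49.96 CPM in MP, 85.8 CPM in MP+BP and 9.41 CPM in PD+MP. *Sox9* in the same cells was at 288, 310, 91.6, 227 and 196 CPM, above the SyS-like level of every tumor. Cluster 23, led by *Mgp*, *Cartpt* and *Penk*, held *Sox3* at 10.3 CPM and *Sox9* at 230 CPM in MP+BP, and 11.8 and 219 CPM in PD+MP. Cluster 24, with *Sst*, *Col1a1* and *Mmp9* among its leading genes, held *Sox3* at 24.3 CPM and *Sox9* at 284 CPM in BP replicate 2. Summed mesenchymal genes reached 4252 and 4300 CPM in clusters 2 and 23 of PD+MP, where its other clusters held 910 to 1530 CPM. Fibroblast RNA in these sums was not tested as a part of the pattern. The highest *Sox3* was found in cluster 12 of the BP tumors (319 and 216 CPM), cluster 11 of MP (174 CPM), cluster 22 of MP+BP (237 CPM) and cluster 17 of PD+MP (200 CPM). Cluster 22 of MP+BP also held the lowest *Sox9* of that tumor, 24.7 CPM. High *Sox9* did not always go with low *Sox3*. Cluster 22 of BP replicate 2 held *Sox9* at 283 CPM with *Sox3* at 147 CPM, and cluster 11 of BP replicate 1 held 265 and 254 CPM. Nor did low *Sox3* always go with high *Sox9*. Cluster 10 of PD+MP held *Sox3* at 94.3 CPM, 61.1% of the level of that tumor, with its lowest *Sox9*, 57.5 CPM.

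**Figure D4:**
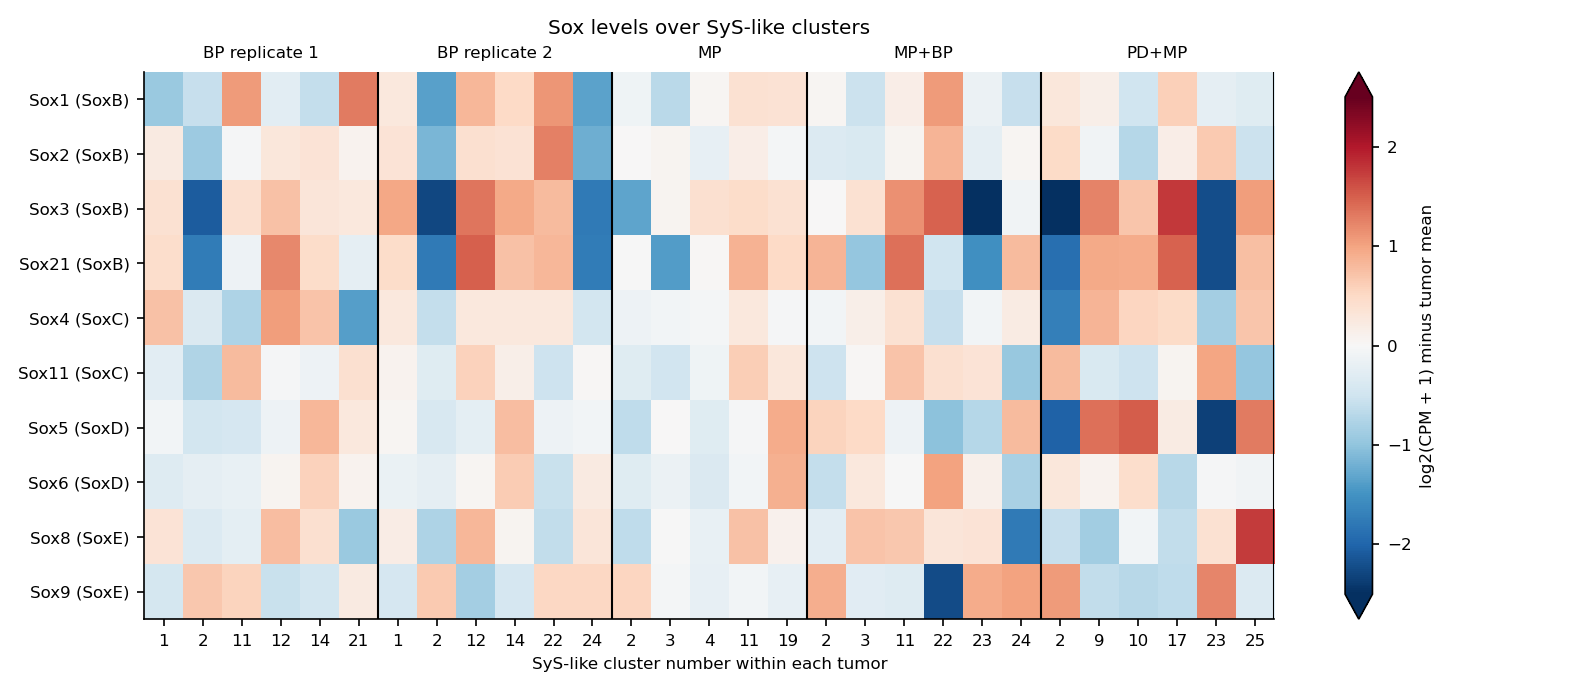
Level of each Sox member, log2(CPM + 1) minus the mean of the tumor's clusters, in 29 sums of SyS-like clusters by tumor (columns, numbered by cluster). *Sox3* is lowest in clusters 2, 23 and 24, where *Sox9* is above the mean of its tumor.

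Across the 29 sums, *Sox3* and *Sox21* ran together (Pearson r = 0.83 of log2 levels centered within tumor), *Sox3* and *Sox9* ran in opposite directions (r = -0.76), and *Sox1* and *Sox2* ran together less closely (r = 0.64). With the summed mesenchymal genes r was -0.91 for *Sox3*, -0.79 for *Sox21* and 0.69 for *Sox9*, and with the neural progenitor genes 0.76 for *Sox2*, 0.72 for *Sox3*, 0.69 for *Sox21* and 0.64 for *Sox1*. These sums share libraries and differ in depth, and the r with the log2 median UMI count was 0.52 for *Sox3* and -0.52 for *Sox9*, so they are given without a test and the part of depth was not tested. The r values of *Sox21* rest in part on sums with 2 to 5 of its UMIs. Of 12742 genes compared, those most like *Sox3* were *Lrp2*, *Cnpy1* and *Wnt3* (each r = 0.94), and those most like *Sox9* were *H2-M3* (0.93), *Ctsz* (0.92) and *Foxd3* (0.90), a neural crest factor. Most like *Sox1* was its overlapping transcript *Sox1ot* (0.82), and most like *Sox2* were *Prok2* (0.87), *C1qtnf3* (0.86) and *Arl4a* (0.85). *Slain1* (0.91) led for *Sox21*, *Syt14* (0.88) for *Sox4*, *Rab43* (0.87) for *Sox5*, *Snx29* (0.88) for *Sox6* and *Rprd1b* (0.82) for *Sox11*.

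*Sox11* and *Sox5* stood out in other clusters. *Sox11* was highest in cluster 11, led by the mitotic genes *Cdc20*, *Ube2c* and *Birc5*, in BP replicate 1 (248 CPM), MP (233 CPM) and MP+BP (191 CPM). In BP replicate 2 it was highest in cluster 12 (133 CPM), led by *Meioc*, *Cenpf* and *Cenpa*, and in PD+MP in cluster 23 (245 CPM), whose summed cycling genes were at 501 CPM against 4011 CPM in cluster 17 of that tumor. *Sox5* in PD+MP ran from 74.1 CPM in cluster 23 to 1077 CPM in cluster 10, a cluster with a median of 2831 UMIs per cell that came almost wholly from this tumor. Among unnamed cells, cluster 13, 99.7% of it from PD+MP and with EGFP in 26.8% of cells, held *Sox21* at 40.0 CPM and *Sox4* at 187 CPM, against 45.4 and 148 CPM in the SyS-like cells of PD+MP. Cluster 7, mostly of MP and MP+BP, held *Sox6* at 820 CPM, against 612 and 363 CPM in SyS-like cells of these tumors. Cluster 5, mostly of the BP tumors, held *Sox9* at 78.9 CPM, against 155 and 158 CPM in their SyS-like cells. With all unnamed clusters led by SyS markers added to the SyS-like class, an alternative chosen after seeing the data, the members called were as many in each class comparison and for the biphasic label.

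The last question was which genes went with a member inside the same tumor and class. SyS-like cells thinned to 3000 UMIs were split by at least 1 or no UMI of *Sox2*, *Sox9* or *Sox11*, and the sums of the parts were compared within tumors, leaving out the splitting gene. Detected cells numbered 298 to 854 per tumor for *Sox2*, 541 to 1693 for *Sox9* and 808 to 1412 for *Sox11*. A cell without a UMI can still express the gene, so the parts are not expressing and silent cells. How this moves the differences between the parts was not tested.

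*Sox11*-detected cells were richer in cycling RNA. Of 12 cycling genes 11 were higher by the edgeR quasi-likelihood test, where 1.78% of 13965 genes were higher and 0.68% lower (1.23% and 0.318% of those that were no clustering feature). DESeq2 called 9 of the 12 higher, with 0.91% of all genes higher and 0.137% lower. *Top2a*, which untangles DNA in mitosis, was higher by 0.59 ± 0.05 (edgeR adjusted p = 2.15e-08), *Mki67* by 0.57 ± 0.06 and *Birc5* by 0.54 ± 0.05, and *Mcm5* was the gene that did not pass. The summed cycling genes were at 612 CPM in detected against 483 CPM in undetected cells of BP replicate 1, 1126 against 724 CPM in BP replicate 2, 1122 against 809 CPM in MP, 918 against 577 CPM in MP+BP and 2038 against 1574 CPM in PD+MP. Detected cells were higher in 5 of 5 tumors, by a ratio of 1.27 to 1.59. Without the tumor as a block, where the spread between tumors enters the error, 0 of the 12 genes were called. The collagen gene *Col1a2* was lower in them (-0.996 ± 0.17, edgeR adjusted p = 3.47e-04), in 5 of 5 tumors, and was the 1 mesenchymal gene of 12 that passed. The summed mesenchymal genes went both ways, with a ratio of detected to undetected cells from 0.864 in BP replicate 1 to 1.12 in PD+MP. Of 10 neural progenitor genes 1 was lower, the glutamate transporter gene *Slc1a3* (-0.24 ± 0.06), and of 8 neuronal and 8 epithelial genes 0 passed. Of the 9 other members *Sox1* alone was higher (0.25 ± 0.06, edgeR adjusted p = 0.0229), in 5 of 5 tumors. The call was lost without BP replicate 1, BP replicate 2, MP or MP+BP (adjusted p from 0.0641 to 0.161 by edgeR) and with DESeq2 (adjusted p = 0.394). The *Sox1* call was also lost at 5000 UMIs (edgeR adjusted p = 0.193) and with doublets kept (edgeR adjusted p = 0.342).

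*Sox2*-detected cells differed less. Called genes made up 0.229% higher and 0.0932% lower of 13947 (0.0979% and 0.0326% of those that were no clustering feature), and 4 of 12 cycling genes were higher (*Birc5* by 0.38 ± 0.07, *Ccnb2*, *Ube2c* and *Top2a*), a count that fell to 0 without MP+BP and to 1 without MP or without PD+MP. None of the 9 other members was called, the nearest being *Sox1* (0.29 ± 0.07, edgeR adjusted p = 0.0727) and *Sox3* (0.15 ± 0.05, edgeR adjusted p = 0.371), both higher in 5 of 5 tumors.

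*Sox9*-detected cells showed a different set. Of 14009 genes 2.33% were higher and 0.585% lower (0.829% and 0.463% of those that were no clustering feature). Of 12 mesenchymal genes 2 were higher and 0 lower, of 10 neural progenitor genes 2 and 0, and of 8 epithelial genes 0 and 1, with list medians of 0.13, 0.11 and 0.01. The mesenchymal genes *Col1a1* (0.74 ± 0.16, edgeR adjusted p = 0.00644) and *Prrx1* (0.30 ± 0.06) and the neural progenitor genes *Hes5* (0.49 ± 0.12) and *Slc1a3* (0.29 ± 0.08) were higher, in 5, 4, 3 and 4 of 5 tumors. The lists as a whole moved little, and the ratio of their sums in detected to undetected cells was 1.01 to 1.23 for mesenchymal and 0.987 to 1.24 for neural progenitor genes. The epithelial gene *Epcam* was lower (-0.33 ± 0.09, edgeR adjusted p = 0.0398), as were the cycling genes *Rrm2* (-0.32 ± 0.08) and *Top2a* (-0.19 ± 0.05), the 2 that passed of 12, and without BP replicate 2 or MP+BP 0 passed. None of the 9 other members was called. *Sox6* came nearest (-0.14 ± 0.05, edgeR adjusted p = 0.128) and was lower without PD+MP (-0.20, edgeR adjusted p = 0.0193).

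**Figure D5:**
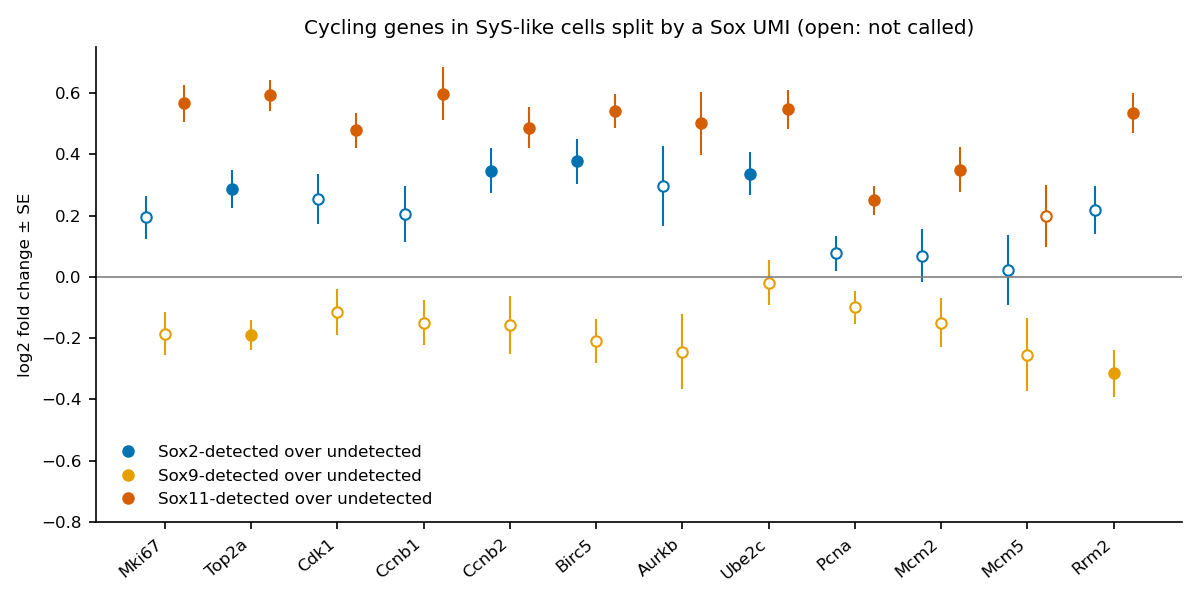
Log2 fold change of 12 cycling genes in SyS-like cells with a UMI of *Sox2*, *Sox9* or *Sox11* over cells without one, in the same tumors after thinning to 3000 UMIs (points, with bars of 1 standard error, 5 pairs each; open points did not pass the test). For *Sox11* 11 of the 12 genes are called higher, for *Sox2* 4 are called higher and for *Sox9* 2 are called lower.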

How the data were processed

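The authors used Cell Ranger 7.2.0 with mm10, per the labels, and deposited its filtered matrices of raw UMI counts per gene and cell, neither normalized nor corrected for free RNA. The reference release and whether intronic reads were counted are not given in the sources used here. Counts from 3′ ends are not scaled by gene length, so levels were not ordered between genes.

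Cells were kept with at least 750 genes and at most 25% mitochondrial counts, and 2957 cells with the highest Scrublet scores were removed as doublets. Clustering used 3000 variable genes, 30 principal components and Leiden resolution 1 (scanpy 1.11.5, leidenalg 0.10.2, Python 3.11.15), and clusters were named from marker lists with at least 3 markers required. Because the classes were rebuilt, they may not match those of the study. Sums per tumor and class (at least 20 cells) were tested with edgeR 4.0.16 in R 4.3.3 (low counts removed by filterByExpr, TMM scaling, then the quasi-likelihood test with Benjamini-Hochberg adjustment over every gene tested), with the tumor as a block where both sides came from the same tumor. DESeq2 1.42.0 was an alternative. The scripts were tested on simulated data with true log2 changes of 1 and 2. Of these 19% and 77% were recovered against stromal, 56% and 87% against endothelial-like and 46% and 91% against macrophage-like cells. For the biphasic label 1% and 58% were recovered. SyS-like sums held at least 57831902 UMIs, stromal sums 710509 to 2733846 and endothelial-like sums 579508 to 5646303, and intervals cover counting error only. Nothing states that the 5 samples are separate animals. With the block, p-values measure the spread of the within-tumor differences over these samples. For the biphasic label they measure the spread between these samples.

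The genes named were the 10 members, the other Sox genes, list genes and, for each member at 5 CPM or more, the 3 genes with the highest correlation. Members and lists were chosen with earlier results of these data known. Coordinates come from GENCODE vM21, which holds 32158 of the 32286 identifiers, and promoter sequences from RefSeq (GRCm38.p6).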

Additional observations from a re-analysis of the deposited data

Results flagged for a closer look

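Each member was checked in each class for a tumor far from the other 4, by the gap to its nearest neighbor as a share of the whole range (Dixon's ratio above 0.71), a rule that chance meets in about 1 in 20 groups. Of 40 groups checked 4 passed, and 3 of these held at least 50 UMIs. *Sox21* in SyS-like cells stood at 45.41 CPM in PD+MP, where the other tumors held 5.61 to 10.1 CPM. *Sox11* in endothelial-like cells stood at 200.2 CPM in PD+MP, on 116 UMIs in 80 cells, against 73.4 to 87.7 CPM elsewhere. *Sox11* in pericyte-like cells stood at 22.69 CPM in MP+BP, on 23 UMIs, against 3.92 to 7.32 CPM elsewhere.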

How the results depend on the processing

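Under all settings in which they were tested, 7 of 10 members had a log2 fold change above 0 against stromal cells. *Sox8* changed sign, with -0.18 without PD+MP. All 10 had a share of cells above that of macrophage-like cells under all settings tried. The number of members called moved in few settings. Against stromal cells it was 7 higher and 0 lower, and became 9 in all with 2 lower by DESeq2 or against pericyte-like cells alone, 6 higher and 1 lower with SyS-like sums thinned to the comparator, and 3 with at least 10 counts in every sum, where 5 of the 10 were left to test. Leaving out 1 tumor gave 6 to 9, with 0 to 2 lower. With at least 10 counts in every sum it was 2 against endothelial-like cells, 1 of them higher, and 4 against macrophage-like cells. For the biphasic label 1 member was called by DESeq2 and 0 to 1 with a tumor left out. The cause of these shifts was not tested except where the count minimum removed genes. Apart from DESeq2, the share of all genes called under these settings is not given, so the counts show only how the calls moved.

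In the splits, no thinning raised the members called to 5 for *Sox2*, 5 for *Sox9* and 6 for *Sox11*. The share of all genes called without thinning is not given, so these counts do not set the members apart from other genes. For *Sox11*, where 1 was called, the count was 0 with DESeq2, 2 without scaling beyond total counts, 2 at 5000 UMIs and 0 to 1 with a tumor left out. The gene called changed as well. At 5000 UMIs *Sox3* (edgeR adjusted p = 0.00913) and *Sox4* (edgeR adjusted p = 0.0203) were called and *Sox1* was not. With doublets kept *Sox3* (edgeR adjusted p = 0.00225) took the place of *Sox1*. For *Sox9* the count was 1, lower, with doublets kept and 0 to 1 with a tumor left out. Cycling genes called higher with *Sox2* were 0 by DESeq2, 7 without thinning, 0 at 5000 UMIs, 7 with doublets kept and 0 to 5 with a tumor left out. Those called lower with *Sox9* were 0 by DESeq2, without thinning (1 higher) and with doublets kept, 1 at 5000 UMIs and 0 to 2 with a tumor left out. The 11 called higher with *Sox11* ranged from 9 to 12 where the block was kept.

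Both sides of each class comparison and of each split come from the same tumor, so the tumor was a replicate block. Without the replicate block the counts of members called between classes stayed within 1.5 times, whereas in the splits 0 cycling genes were called for *Sox2*, *Sox9* and *Sox11* and 0 members for *Sox11*. No paired analysis was possible for the biphasic label because its sides are different tumors.

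Members whose sign changed were called in neither setting. With a tumor left out the log2 fold change ran from -0.18 to 0.25 for *Sox8* against stromal cells. For the biphasic label it ran from -0.18 to 0.28 for *Sox3*, from -0.43 to 1.19 for *Sox4* (-0.24 without BP replicate 2), from -1.43 to 0.90 for *Sox5* and from -0.556 to 0.0564 for *Sox11*. For the *Sox9* split it ran from -0.0391 to 0.0905 for *Sox1*, from -0.0223 to 0.0819 for *Sox5*, from -0.39 to 0.22 for *Sox8*, from -0.0040 to 0.0836 for *Sox11* and from -0.102 to 0.0272 for *Sox21*, and for the *Sox11* split from -0.0322 to 0.0902 for *Sox6*, from -0.14 to 0.35 for *Sox8* and from -0.0591 to 0.029 for *Sox9*. Without thinning *Sox5* was 0.10 in the *Sox2* split and 0.14 in the *Sox11* split, and *Sox3* was 0.0838 and *Sox8* 0.23 in the *Sox9* split. In the *Sox9* split *Sox8* was 0.56 at 5000 UMIs, *Sox5* was -0.0191 without the replicate block and -0.0794 with doublets kept, and *Sox21* was 0.0011 by DESeq2. In the *Sox11* split *Sox9* was 0.0024 without scaling beyond total counts, 0.0174 at 5000 UMIs and 0.044 with doublets kept.

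The main limits are 5 tumors with 1 each for 3 labels, stromal sums of 157 to 534 cells per tumor, classes rebuilt from these cells, and 11.7% to 26.4% of cells left unnamed.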
